A study of Orbilia oligospora ATCC 24927 with 24 samples.

Results

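Trap induction was followed in Arthrobotrys oligospora (also named Orbilia oligospora, strain ATCC 24927), a fungus that captures nematodes. The hyphae are labelled as a deletion mutant of AoPkaC1, whose name points to a catalytic subunit of the kinase PKA, which cAMP activates. The series' design text instead names a mutant of AorlmA and a smaller set of samples, so the identity of the strain rests on the sample labels alone. The comparison set 3 libraries of the deletion taken 12 h after trap induction by an extract of nematodes against 3 libraries of the same strain without treatment at 0 h. These are 6 of the 24 libraries of the study, which fall into 8 groups of 3. The same experiment holds untreated and induced wild type libraries, and a second experiment holds an adenylate cyclase (Acy) deletion with a wild type of its own, sampled in the same way. All strains grew on potato dextrose agar. The genes described are the 8977 of 11479 annotated genes that reached 1 TPM (transcript abundance normalized for gene length and library total) in at least 3 of the 12 libraries of the PkaC1 experiment.

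In fungi, adenylate cyclase makes cAMP, which binds the regulatory subunits of PKA and so frees its catalytic subunits to phosphorylate their targets. In the yeast Saccharomyces cerevisiae PKA is known for favouring growth and ribosome synthesis and for holding back stress genes, carbohydrate stores and genes of respiratory growth. A. oligospora lives as a saprotroph and turns hyphae into adhesive networks when it meets nematodes, a change that draws on septation, surface proteins, peroxisomes and secreted peptidases.

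The labels give neither the number of mutant clones nor the cultures behind the 3 libraries of each group, although the series text speaks of biological replicates. The p-values therefore measure the spread between libraries. There was no library of the deletion kept for 12 h without extract, so extract and elapsed time cannot be told apart. RNA came from whole cultures, in which fewer cells of a kind and less RNA per cell cannot be told apart either. The files do not show which gene was deleted. The catalytic subunit genes AOL_s00078g405 and AOL_s00043g480 were both listed in every library of the deletion, at 38.6, 37.8 and 39.1 and 35.9, 36.5 and 37.1 scaled TPM untreated, and no label tells which one, or what stretch of it, was removed.

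The level of a typical gene differed between both times before any scaling. The median of the tested genes was 24.7 to 29.8 TPM in the untreated deletion libraries and 13.4 to 14.6 TPM in the induced ones, while the 100 most abundant genes took 35.6% to 41.6% of all TPM untreated and 48.2% to 50.8% induced. All libraries were therefore scaled to the same median of 20.2, and values below are scaled TPM. Fold changes are differences of log2(scaled TPM + 1), given with their standard error where one is printed. The replicates of the untreated deletion lay furthest apart. The median coefficient of variation of genes above 1000 TPM was 16.8% there, 6.03% in the induced deletion, and 1.63% and 1.98% in the untreated and induced wild type. Untreated replicate 1 of the deletion was the lowest of its group for most of the abundant stress genes below, and without it 5905 genes were called.

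Induction changed most of the transcriptome of the deletion. Of the 8977 genes, 6124 were called at an adjusted p under 0.05 (68.2%), of which 3389 were higher (37.8% of all tested) and 2735 lower (30.5%). A change of 2-fold or more was called for 2018 genes upward (22.5%) and for 1335 downward (14.9%). The 3 induced libraries did not overlap the 3 untreated ones in 6624 genes (73.8%). The split depended on the scaling: with TPM as deposited 1522 genes were called higher (17.0%) and 5265 lower (58.6%), and the median over all genes moved from 0.10 to -0.72 on the log2 scale. All 2735 called decreases remained lower without scaling, but 1062 of the called increases changed sign. Counts in the gene lists below are to be read against 37.8% higher and 30.5% lower over all genes, and shares near these set no list apart. The authors' deposited table of this comparison has a median log2 fold change of -0.02 over the same genes and calls 1899 of them 2-fold higher and 1692 lower. A set of 3046 genes was called 2-fold in both, which is 84.8% of the authors' calls and 90.8% of the present ones, and all 3046 had the same direction.

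**Figure D1:**
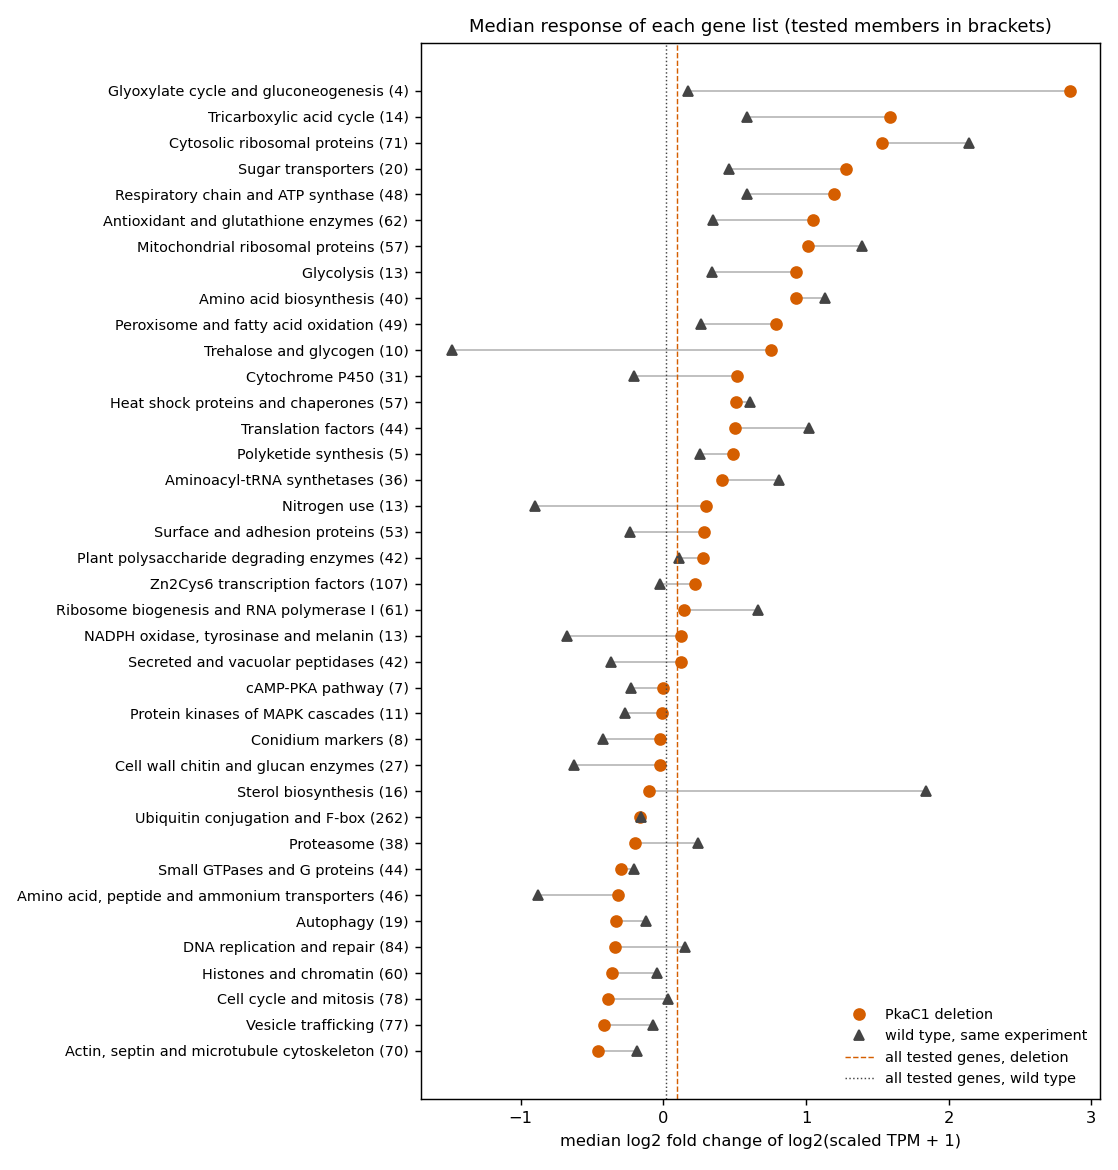
Median log2 fold change of the tested members of each of 38 gene lists on induction, in the PkaC1 deletion (orange circles) and in the wild type of the same experiment (dark triangles), with dashed and dotted lines at the medians of all tested genes. The deletion medians run from -0.46 for the cytoskeleton to 2.85 for the glyoxylate cycle and gluconeogenesis, and the widest gaps to wild type are at the glyoxylate, trehalose and glycogen, and sterol lists.

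Heat shock proteins took a larger share of the transcripts after induction. The 59 annotated heat shock proteins and chaperones, 57 of them tested, took 2.999%, 3.84% and 4.63% of all deposited TPM in the untreated libraries and 11.03%, 10.9% and 12.1% in the induced ones. Most of that rise lay in 3 genes, both 30 kDa heat shock proteins and heat shock 70 kDa protein 2, which took 2.02%, 2.77% and 3.45% untreated and 8.49%, 8.35% and 9.31% induced. The small heat shock protein AOL_s00112g95, of the family that keeps unfolding proteins soluble, stood at 5635, 7538 and 10641 untreated and 47919, 45182 and 52349 induced. A second gene of the same name, AOL_s00076g65, stood at 4722, 8224 and 10760.3 and then at 43626, 41639.6 and 52051. Every induced library lay far above every untreated one in both genes. No source says how reads common to the pair were assigned, so the split between them is uncertain. Their log2 fold changes were 2.66 ± 0.32 (adjusted p = 0.000536) and 2.61 ± 0.38 (adjusted p = 0.00112).

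Folding and disaggregation chaperones rose with them. Heat shock 70 kDa protein 2 (AOL_s00215g255), a general folding chaperone, went from 3290.5, 5747 and 6789 to 29257, 28099 and 35942. The disaggregase hsp98 (AOL_s00097g448) went from 1530.4, 2277 and 3024 to 17382, 16380.3 and 20164, an 8.16-fold rise (adjusted p = 0.000167). The Hsp110 family chaperone hsp88 (AOL_s00210g139), went from 223, 295 and 404 to 3353, 3187 and 4240.2, or 11.9-fold (adjusted p = 4.24e-05). In all 3 genes untreated replicate 1 was the lowest library and no untreated value came near an induced one. The mitochondrial disaggregase heat shock protein 78 (AOL_s00173g116) rose 9.58-fold, from 267, 459 and 594 to 3840.2, 3736 and 4489. Polyubiquitin (AOL_s00078g37), the precursor of the tag for protein breakdown, rose from 3949.8, 5193 and 5648 to 11872, 11075 and 13649.7, a log2 fold change of 1.32 ± 0.22.

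The rise was not shared by all of the list. Of its 57 tested members 33 were called higher and 14 lower, with a median log2 fold change of 0.51 against 0.10 for all genes. Without scaling that median was -0.41, and the counts were 12 higher and 28 lower. The mitochondrial chaperone BCS1-B (AOL_s00210g32), of a family that assembles the cytochrome bc1 complex, fell from 80.5, 100.3 and 99.9 to 26.0, 33.2 and 25.3. A divergent heat shock 70 kDa protein 12A (AOL_s00097g356) fell from 179, 189.7 and 177 to 65.6, 60.4 and 63.6. Both were lower in every induced library (adjusted p = 0.000102 and 9.80e-06).

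**Figure D2:**
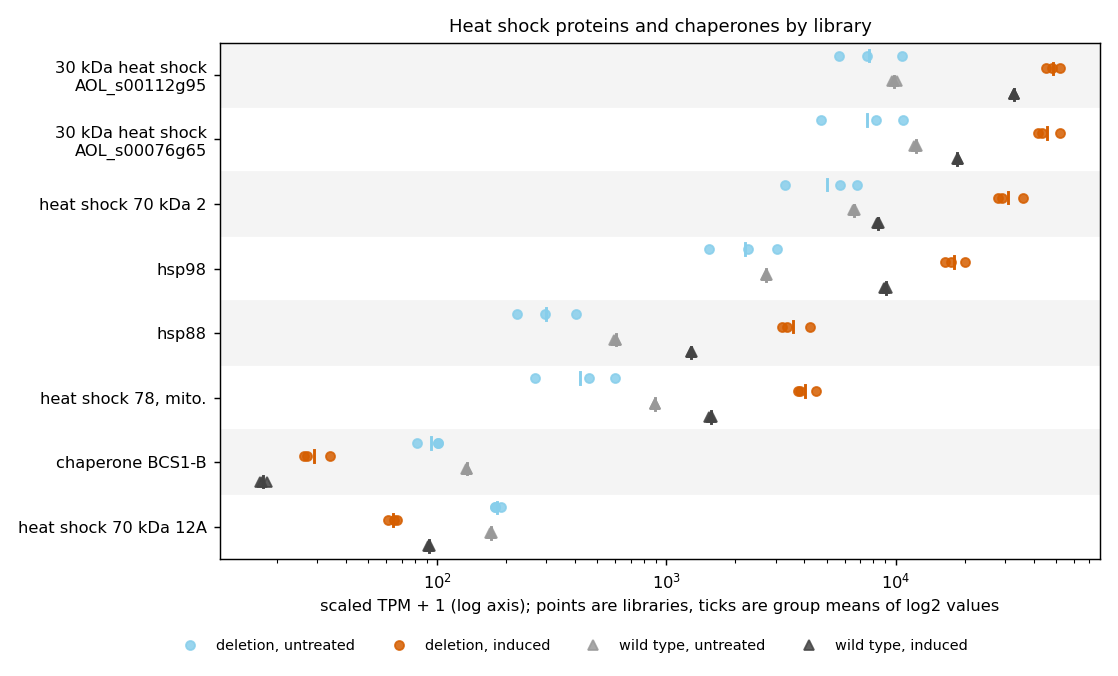
Scaled TPM + 1 on a log axis of 8 heat shock proteins and chaperones in the 6 libraries of the deletion (circles) and the 6 of the wild type (triangles), with a tick at each group's mean of log2 values. The 6 upper genes are higher in all 3 induced deletion libraries than in any untreated one and higher than in the induced wild type, and the 2 lower genes are lower after induction.

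Genes for growth on acetyl units and for making sugar rose. All 4 tested genes of the glyoxylate cycle and gluconeogenesis were called higher, with a median log2 fold change of 2.85. Isocitrate lyase (AOL_s00075g130), the entry enzyme of the glyoxylate cycle, was 63.1, 74.4 and 56.6 untreated and 519, 457 and 531 induced. Phosphoenolpyruvate carboxykinase (AOL_s00004g362), which starts gluconeogenesis, was 126, 148 and 152 and then 1191, 1016 and 1349. The untreated and induced libraries of both genes were far apart, with 7.69-fold and 8.28-fold rises (adjusted p = 7.25e-06 and 8.90e-06). The remaining members were malate synthase (AOL_s00112g112), which completes the glyoxylate cycle, and fructose-1,6-bisphosphatase (AOL_s00078g34), which makes fructose 6-phosphate, both named after their values were seen. Malate synthase rose from 56.0, 83.1 and 77.7 to 446, 410.4 and 479. Fructose-1,6-bisphosphatase rose from 182, 253 and 292 to 1581, 1553 and 1699, a log2 fold change of 2.75 against 1.23 in the authors' table.

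With scaling, the tricarboxylic acid cycle and the respiratory chain rose in nearly all of their genes. Of 14 tested cycle genes 13 were called higher and none lower, with a median of 1.59, and of 48 tested genes of the respiratory chain and ATP synthase 45 were called higher and none lower, with a median of 1.20. Both medians stayed above 0 without scaling, at 0.66 and 0.27. The counts without scaling were 11 higher and 0 lower for the cycle, and 21 higher and 5 lower for the respiratory list. Fumarase (AOL_s00004g654), which makes malate, rose from 84.3, 102 and 105 to 677, 643 and 672. A malate dehydrogenase annotated as cytoplasmic (AOL_s00215g565), which turns malate into oxaloacetate, rose from 103, 93.9 and 87.0 to 525, 519 and 532. The succinate dehydrogenase cytochrome b subunit (AOL_s00054g143), an anchor of complex II, rose from 284, 345 and 314 to 2503, 2453 and 2628. Its flavoprotein subunit (AOL_s00078g245) rose from 82.6, 73.4 and 77.2 to 605, 609 and 636. The complex II genes rose 8.04-fold and 7.85-fold, or 3.01 and 2.97 on the log2 scale. The authors' table has 2.86 for the cytochrome b subunit and a smaller 1.89 for the flavoprotein subunit.

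Both routes of electrons to oxygen rose as well. Cytochrome c (AOL_s00081g186), the carrier to the terminal oxidase, was 449.6, 535 and 503 untreated and 3022, 2863 and 3199 induced. Alternative oxidase (AOL_s00080g303), which bypasses cytochrome c, was 230.01, 377 and 393 and then 1207, 1198 and 1549. Neither gene's groups overlapped, and their log2 fold changes were 2.61 ± 0.11 (adjusted p = 7.50e-06) and 2.01 ± 0.23 (adjusted p = 0.00043). These genes were also named after their values were seen.

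Most of glycolysis rose, while a hexokinase and pyruvate kinase fell. Of 13 tested glycolytic genes 11 were called higher and 2 lower, with a median of 0.93 that was 0.01 without scaling. Fructose-bisphosphate aldolase (AOL_s00004g332) rose from 327, 408 and 439 to 2997, 2896 and 3315. Glyceraldehyde-3-phosphate dehydrogenase (AOL_s00169g10) rose from 2071, 3190.1 and 3461 to 13373, 12957 and 14407. The hexokinase (AOL_s00112g89), which phosphorylates glucose, fell from 42.4, 49.1 and 50.7 to 11.7, 9.90 and 9.33. Pyruvate kinase (AOL_s00004g87), which catalyses the last step, fell from 83.8, 67.1 and 74.7 to 37.6, 37.8 and 31.5. Both were lower in every induced library, and they fell 4.28-fold and 2.08-fold.

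Genes of storage carbohydrates rose for the most part with scaling. Of 10 tested trehalose and glycogen genes 7 were called higher and 2 lower. Their median of 0.75 was -0.07 without scaling. Trehalose phosphorylase (AOL_s00097g268), which splits trehalose, rose from 60.3, 81.4 and 86.5 to 322, 271 and 302. Glycogen synthase (AOL_s00007g435), which extends glycogen, rose from 29.1, 35.4 and 36.7 to 81.0, 74.9 and 84.6. Glycogen phosphorylase (AOL_s00109g17), which breaks glycogen down, fell from 48.9, 50.9 and 41.1 to 12.7, 11.7 and 9.05. Glycogenin-1 (AOL_s00054g323), the primer of glycogen chains, fell from 62.7, 50.6 and 53.9 to 23.2, 28.3 and 22.5.

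**Figure D3:**
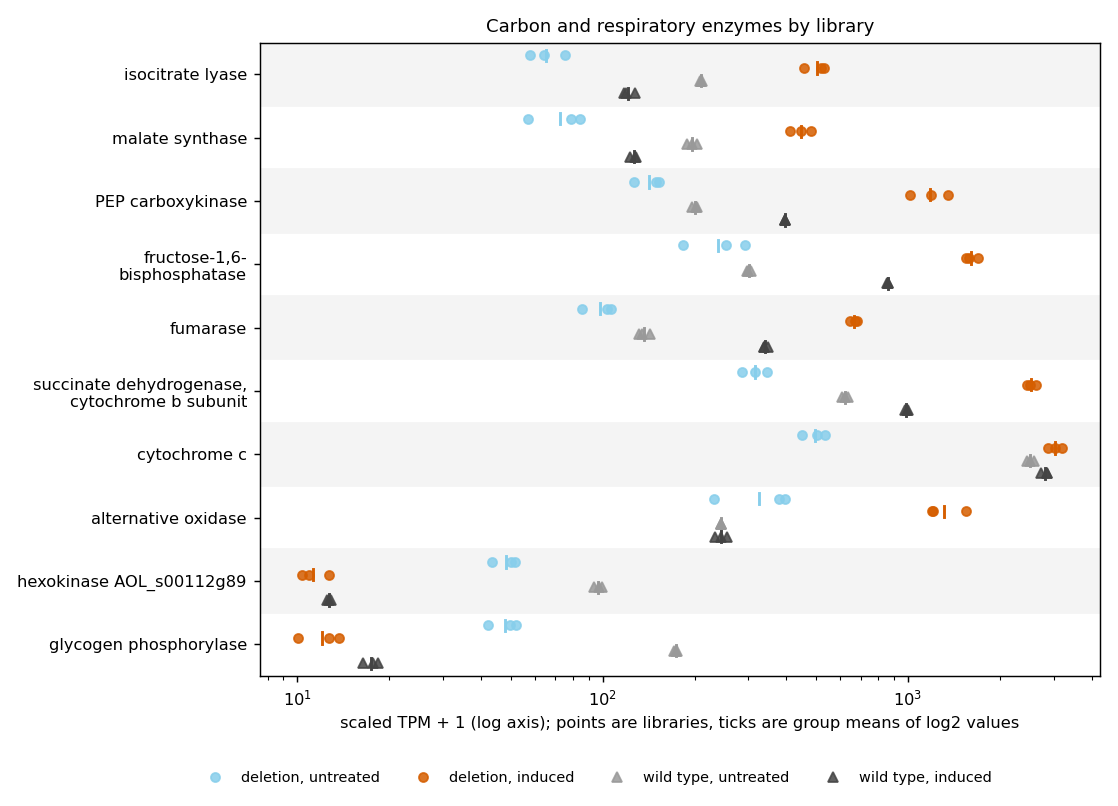
Scaled TPM + 1 on a log axis of 10 carbon and respiratory enzymes in the 6 libraries of the deletion (circles) and the 6 of the wild type (triangles), with a tick at each group's mean of log2 values. The 8 upper genes rise in the deletion on induction, isocitrate lyase and malate synthase fall in the wild type, and hexokinase and glycogen phosphorylase fall in both strains.

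A pathway for galacturonate, the sugar acid of pectin, held several of the largest increases of the whole comparison. In filamentous fungi L-galactonate dehydratase and L-threo-3-deoxy-hexylosonate aldolase catalyse consecutive steps of galacturonate breakdown. The dehydratase (AOL_s00054g744) went from 6.34, 6.72 and 5.34 to 529.8, 555 and 495. The aldolase (AOL_s00083g372) went from 1.42, 1.87 and 1.14 to 433, 462 and 432, a 180.2-fold rise (adjusted p = 7.18e-07). Both were near 0 or low in all untreated libraries of the deletion and abundant in all its induced ones. The wild type of the same experiment rose too, with log2 fold changes of 4.21 for the dehydratase and 6.48 for the aldolase. In the untreated wild type of the second experiment the dehydratase stood at 275, 204 and 326 and the aldolase at 120, 89.2 and 141.

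Pectin-cutting enzymes rose beside it. Endopolygalacturonase A (AOL_s00007g322) went from 0.927, 0.768 and 0.873 to 72.4, 91.1 and 62.1. Exopolygalacturonase B (AOL_s00054g232) went from 0.332, 0.310 and 0.702 to 38.3, 43.7 and 32.3. All 5 tested genes with polygalacturonase in their name were called higher, with log2 fold changes from 0.86 to 5.34, a grouping chosen after the values were seen. Of 76 plant polysaccharide degrading enzymes, these included, 42 passed the filter and 19 were called higher and 10 lower, with a median of 0.28 that was -0.31 without scaling. Enzymes of sugar alcohols were also among the largest named increases. D-arabinitol dehydrogenase (AOL_s00081g180) went from 0.291, 0.907 and 0.375 to 238, 252 and 220.3. A D-xylulose reductase (AOL_s00193g126) was listed at 0 in all untreated libraries and at 105, 129.8 and 104 in the induced ones. Beta-glucosidase B (AOL_s00083g367), which releases glucose from short glucans, went from 0.514, 0.535 and 0.612 to 127, 159.7 and 112. The wild type of the same experiment had log2 fold changes of 3.94 for endopolygalacturonase A and 0.40 for exopolygalacturonase B. There D-arabinitol dehydrogenase had 3.05, the D-xylulose reductase 4.23 and beta-glucosidase B 8.06.

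Sugar uptake genes followed. Of 20 tested sugar transporters 14 were called higher and 2 lower, with a median of 1.28 (0.55 without scaling). Sugar transporter STL1 (AOL_s00140g74), a glycerol carrier in S. cerevisiae, went from 0.210, 0.302 and 0 to 24.5, 25.0 and 30.4. A quinate permease (AOL_s00215g872) went from 9.90, 13.4 and 15.4 to 249, 275 and 283, with a log2 fold change of 4.30 ± 0.16 (adjusted p = 5.33e-06). Induced and untreated libraries were separated by more than 10-fold in both genes.

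Of 49 tested genes of peroxisomes, organelles linked to trap cells in this fungus, and of fatty acid oxidation 33 were called higher and 8 lower, with a median of 0.79 that was -0.12 without scaling. Peroxisomal membrane protein PMP30B (AOL_s00083g431), of the PEX11 family that multiplies peroxisomes, went from 78.9, 104 and 112 to 1519.5, 1494 and 1347. An enoyl-CoA hydratase (AOL_s00215g892), an enzyme of beta-oxidation, went from 1.35, 10.9 and 1.01 to 58.1, 65.7 and 56.7. The first gene rose 14.8-fold (adjusted p = 5.33e-06), and the second had a high value in untreated replicate 2 that still lay under all induced libraries (adjusted p = 0.00219).

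Antioxidant and glutathione enzymes rose for the most part. Of 62 tested genes 47 were called higher and 7 lower, with a median of 1.05, or 0.13 without scaling. A glutathione S-transferase (AOL_s00169g109), which joins glutathione to toxic compounds, went from 69.9, 81.9 and 104 to 1440.3, 1221 and 1199. A glutathione-dependent formaldehyde-activating enzyme (AOL_s00188g318) went from 31.6, 60.9 and 54.9 to 471, 479.7 and 601. The cell surface superoxide dismutase (AOL_s00173g103), which removes superoxide outside the cell, fell from 162, 124 and 124 to 12.9, 5.52 and 8.50. No induced library came near an untreated one, and the log2 fold change was -3.84 ± 0.28 (adjusted p = 6.17e-05).

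Enzymes that make reactive oxygen and pigment were split. NADPH oxidase 1 (AOL_s00193g69), a source of superoxide in fungal development, fell from 405, 374 and 409 to 78.1, 71.2 and 78.2. Tyrosinase AOL_s00215g501, of the phenol-oxidizing enzymes of melanin synthesis, fell from 129, 109.6 and 118 to 5.31, 4.50 and 6.60. Tyrosinase AOL_s00210g370 went the other way, from 7.73, 10.6 and 13.4 to 118, 130.3 and 123. The groups did not overlap in any of the 3 genes (adjusted p = 3.51e-06, 3.88e-06 and 1.84e-05). Of the 6 tested genes named tyrosinase, 2 were called higher and 3 lower.

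Ribosomal protein genes rose together. Of the 71 genes of the cytosolic ribosome, 70 were called higher and none lower, and log2 fold changes ran from 0.83 to 2.15 with a median of 1.53 (0.61 without scaling). Protein L10a of the large subunit (AOL_s00173g337) went from 396, 329 and 321 to 1605, 1586 and 1459.7. Protein L30 (AOL_s00083g324) went from 165, 94.8 and 125 to 446, 605 and 579. Every induced library was above every untreated one in both genes. Mitochondrial ribosomal proteins rose in 50 of 57 genes and fell in 1, with a median of 1.01. Without scaling that median was 0.13, with 16 called higher and 5 lower. Protein L4 of the mitochondrial ribosome (AOL_s00079g14) was listed at 0 in all untreated libraries and at 62.8, 58.9 and 91.9 in the induced ones.

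Other lists of the translation machinery had smaller medians. Of 44 tested translation factors 24 were called higher and 8 lower (median 0.50), and of 36 tRNA synthetases 20 were called higher and 4 lower (median 0.41). Ribosome biogenesis and RNA polymerase I, which make new ribosomes, had 20 genes higher and 6 lower of 61, with a median of 0.15 that is near the 0.10 of all genes. These 3 medians were below 0 without scaling, at -0.42, -0.50 and -0.74. Initiation factor 6 (AOL_s00079g326), which keeps the large subunit apart until it is ready, rose from 281, 370.00 and 439.8 to 2624, 2838 and 3306. Elongation factor 2 (AOL_s00109g87), which moves the ribosome along, rose from 218, 188 and 175 to 589, 610.4 and 579.6.

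Single genes of the same machinery fell. Elongation factor 3 (AOL_s00210g131), which fungi need in addition for elongation, fell from 1289, 952 and 902 to 282, 264 and 280.2. Initiation factor 4E type 3 (AOL_s00004g458), of the cap-binding family, fell from 123, 74.2 and 85.9 to 0.740, 0 and 2.91. Among the tRNA ligases the glutamate enzyme (AOL_s00007g436) rose from 92.8, 123 and 132 to 997, 1015 and 1102, and the asparagine enzyme (AOL_s00043g456) fell from 236, 161 and 168 to 48.0, 50.7 and 48.8. The largest subunit of RNA polymerase I, rpa1 (AOL_s00117g6), rose from 26.9, 41.8 and 49.4 to 163, 146 and 189 (adjusted p = 0.000344).

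Amino acid synthesis rose in 28 of 40 tested genes and fell in 2, with a median of 0.93 (0.02 without scaling). Its largest increases started from genes listed at 0. Argininosuccinate synthase (AOL_s00076g641), which makes the precursor of arginine, was listed at 0 in all 3 untreated libraries and at 468, 505 and 461 in the induced ones. D-3-phosphoglycerate dehydrogenase (AOL_s00215g666), the first enzyme of serine synthesis, was likewise listed at 0 and then at 155, 146 and 158. The wild type of the same experiment did much the same. There the synthase went from 0 to 297, 299.7 and 276, and the dehydrogenase from 2.09, 0 and 0.761 to 271, 273 and 266. In the untreated wild type of the second experiment they stood at 539, 666 and 546 and at 177, 289 and 223. The next enzyme of arginine synthesis, argininosuccinate lyase (AOL_s00215g119), was listed at 0 in all 6 deletion libraries and at 96.3, 106 and 88.4 in the induced wild type, a gene named after its values were seen.

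Such zeros were not rare. An exact 0 in estimated abundances can be a failed estimate, and no fold is given for genes listed at 0 in a whole group. Of the tested genes 84 were listed at 0 in all 3 untreated deletion libraries, and 40 of them were above 0 in all 3 induced ones. Another 141 were listed at 0 in all 3 induced libraries, and 87 of those were above 0 in all 3 untreated ones. Leaving out every gene listed at 0 in any of the 6 libraries left 8394 genes, of which 5816 were called, 3282 of them higher.

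Most cytoskeleton genes fell. Of 70 tested actin, septin and microtubule genes 8 were called higher and 46 lower, with a median of -0.46. Tropomyosin (AOL_s00006g263), which stabilizes the actin cables of growing hyphae, was 109.9, 96.4 and 99.4 untreated and 5.72, 6.80 and 5.46 induced. The septin spn1 (AOL_s00215g893), of the filament proteins that mark septa and branch sites, was 26.0, 20.7 and 17.1 and then 0.698, 1.34 and 0. Both were lower in every induced library, and tropomyosin fell 14.7-fold (adjusted p = 2.67e-06). On the log2 scale the tropomyosin change was -3.88 here and -2.94 in the authors' table.

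Genes of vesicle transport, which carries wall material and secreted proteins, were called lower more often than higher. Of 77 tested genes 10 were called higher and 42 lower, with a median of -0.41. SEC24 (AOL_s00215g248), the cargo receptor of the COPII coat, fell from 173, 135 and 142 to 18.2, 13.7 and 19.6. The gamma subunit of the AP-1 adaptor (AOL_s00054g339), which loads clathrin vesicles, was 27.1, 19.1 and 20.1 untreated and listed at 0 in all induced libraries.

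Cell cycle, replication and chromatin lists had medians between -0.39 and -0.34. Of 78 cell cycle genes 9 were called higher and 41 lower. Of 84 genes of DNA replication and repair 17 were called higher and 37 lower. Of 60 genes of histones and chromatin 6 were called higher and 30 lower. PHO85 cyclin-9 (AOL_s00078g9), of the cyclins that direct the nutrient-sensing kinase PHO85, fell from 752, 650.1 and 689.5 to 67.9, 26.6 and 61.2. Cyclin pch1 (AOL_s00004g291) fell from 34.0, 31.8 and 29.7 to 14.1, 9.57 and 7.04. The histone acetyltransferase esa1 (AOL_s00006g355), which opens chromatin, fell from 24.1, 20.6 and 18.6 to 8.57, 7.63 and 8.08. The histone chaperone asf1 (AOL_s00054g628) fell from 77.2, 62.9 and 64.1 to 32.2, 36.8 and 29.3. All 4 were lower in every induced library, and the cyclin-9 decrease was 14.2-fold.

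Protein turnover lists also held more falls than rises. Of 19 tested autophagy genes 2 were called higher and 11 lower (median -0.33), and ATG9 (AOL_s00054g371), which brings membrane to the forming autophagosome, fell from 22.9, 21.8 and 22.0 to 8.93, 8.47 and 9.82. Of 38 proteasome genes 5 were called higher and 15 lower (median -0.20), and the base ATPase regulatory subunit 7 (AOL_s00078g246) fell from 40.0, 42.2 and 38.1 to 11.3, 12.6 and 8.05. Of 262 tested genes for ubiquitin conjugation and F-box proteins 54 were called higher and 90 lower. The E3 ligase RNF216 homologue (AOL_s00097g162) rose from 39.8, 68.3 and 91.8 to 454, 453 and 523 (adjusted p = 0.000228).

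**Figure D4:**
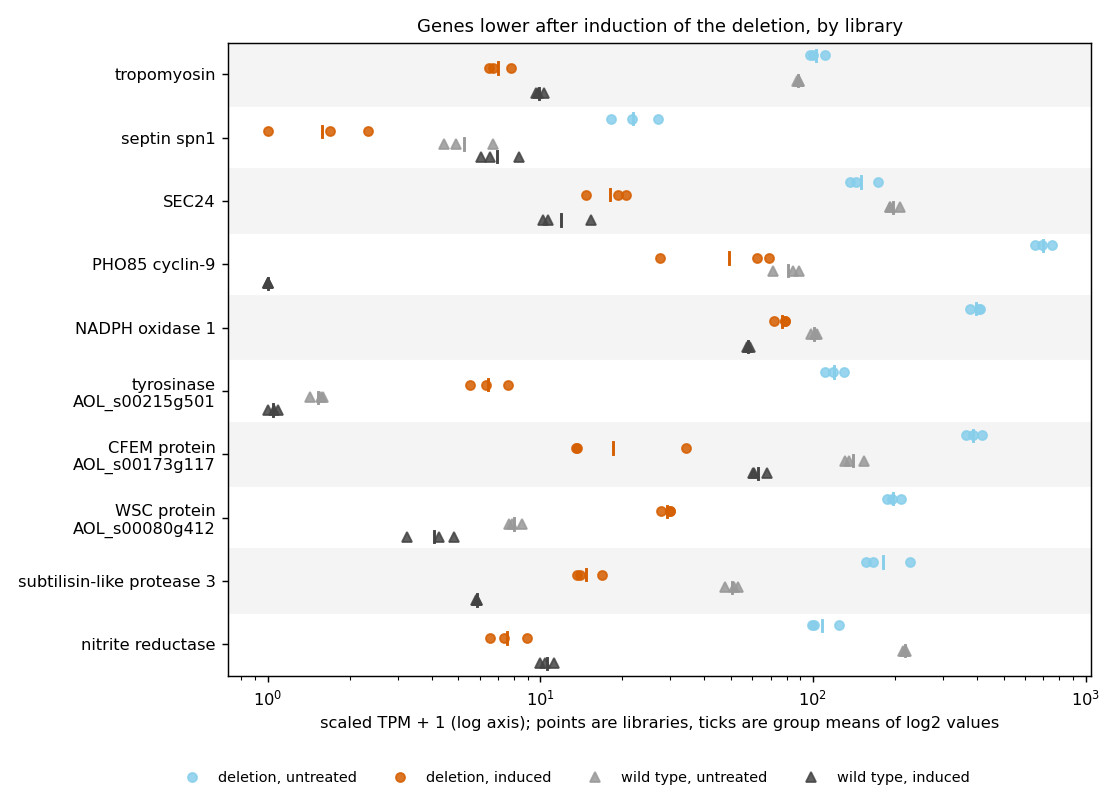
Scaled TPM + 1 on a log axis of 10 genes that were lower after induction of the deletion, in its 6 libraries (circles) and the 6 of the wild type (triangles), with a tick at each group's mean of log2 values. In each gene the 3 induced deletion libraries lie below the 3 untreated ones, and septin spn1 is the gene without a fall in the wild type.

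Of 53 tested of 72 annotated surface and adhesion proteins, families linked to trap adhesion, 19 were called higher and 18 lower, shares near those of all genes, and without scaling the counts were 10 higher and 29 lower. A CFEM-domain protein (AOL_s00173g117), of a fungal surface family, fell from 416, 362 and 385 to 12.5, 33.2 and 12.7. A WSC-domain protein (AOL_s00080g412), of the wall sensor family, fell from 186, 194 and 209.6 to 26.7, 29.0 and 28.9. A ricin-type lectin (AOL_s00080g99) rose from 52.5, 39.0 and 48.8 to 292, 259.9 and 259. A cell agglutination protein (AOL_s00007g5) rose from 5.38, 6.34 and 3.06 to 31.9, 27.3 and 24.1. The Agaricus bisporus-type lectin AOL_s00080g288 stood at 24.6, 21.1 and 18.2 untreated and 13.6, 16.1 and 14.1 induced, a fall (adjusted p = 0.0148) that lost its call without induced replicate 1 (adjusted p = 0.0502). The mannose-specific lectin AOL_s00006g511 stayed at 2.89 or less in all 6 libraries. Both lectins were named after their values were seen.

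Of 42 tested of 69 annotated secreted and vacuolar peptidases, some of which digest prey, 16 were called higher and 12 lower, shares near those of all genes, and without scaling the counts were 4 higher and 22 lower. The aspartic endopeptidase opsB (AOL_s00173g133) rose from 27.3, 58.0 and 75.9 to 1027, 977 and 1162. Another aspartyl protease (AOL_s00007g136) fell from 72.3, 81.2 and 88.5 to 1.28, 0.881 and 2.89. The subtilisin-like protease 3 (AOL_s00097g43), a relative of the serine proteases that attack nematode cuticle, fell from 226, 155 and 165 to 12.7, 12.9 and 15.8. Every one of these changes was larger than 10-fold (log2 fold changes 4.38, -4.99 and -3.62).

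Of 27 tested cell wall genes, 12 were called higher and 12 lower, and 3 higher and 17 lower without scaling. Beta-1,3-glucan-binding protein AOL_s00169g78 fell from 161, 122 and 133 to 7.22, 10.8 and 8.44, and a gene of the same name, AOL_s00083g270, fell from 289, 229 and 237 to 27.7, 25.2 and 21.6. The 1,3-beta-glucanosyltransferase AOL_s00054g492, which lengthens wall glucan, rose from 2375, 2987 and 3031 to 7705, 7679.7 and 9009. A regulator of chitin synthesis (AOL_s00083g5) rose from 56.0, 98.8 and 96.6 to 409, 356 and 416.

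Conidia, the asexual spores, could share a culture with hyphae and traps, so their markers were followed. The 10 annotated conidium markers summed to 0.0289%, 0.0334% and 0.0354% of TPM in the untreated libraries and 0.0248%, 0.0235% and 0.0271% in the induced ones, and 2 of them were below the filter. Of the 8 tested, 1 was called higher and 3 lower. Conidiation-specific protein 13 (AOL_s00081g178) rose from 0.426, 0.171 and 0.955 to 60.7, 86.8 and 50.7. The conidiation regulator brlA (AOL_s00097g514), a zinc finger factor that starts spore formation in Aspergillus, fell from 25.2, 24.7 and 23.0 to 4.30, 3.73 and 5.87. These markers did not rise as a list, and their part in other results was not tested.

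Nitrogen use genes were divided. Of 13 tested genes 6 were called higher and 5 lower, or 2 higher and 7 lower without scaling. Named genes that rose act in purine breakdown, and named genes that fell act in nitrate use. Uricase (AOL_s00097g623), which oxidizes urate, went from 173, 147 and 169 to 838, 633 and 948, and allantoicase (AOL_s00117g45), further along the same route, from 254, 343 and 376 to 1297, 1180.3 and 1455. Nitrite reductase (AOL_s00210g162), which makes ammonium, went from 124, 100.2 and 98.5 to 7.94, 6.33 and 5.53, and the nitrate transporter (AOL_s00004g610) from 195, 114 and 143 to 18.3, 21.0 and 19.0. The groups did not overlap in any of the 4 genes (adjusted p = 5.70e-05, 0.000104, 6.57e-06 and 4.82e-05). Of 46 tested amino acid, peptide and ammonium transporters 13 were called higher and 22 lower. The GABA permease (AOL_s00173g75) rose from 12.5, 17.2 and 17.2 to 131, 112 and 134, and the amino acid permease AOL_s00097g426 fell from 184, 157 and 154 to 19.7, 14.9 and 17.4.

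Within the cAMP-PKA pathway 1 of 7 tested genes was called higher and 1 lower once the libraries had one median. Without scaling the counts were 0 higher and 6 lower, with a median of -0.88 beside -0.72 for all genes. The catalytic subunit genes had log2 fold changes of -0.10 ± 0.08 for AOL_s00078g405 and -0.02 ± 0.07 for AOL_s00043g480, and the regulatory subunit (AOL_s00075g84), which holds the kinase inactive, had 0.12 ± 0.16. None of these passed the test with scaling (adjusted p = 0.334, 0.784 and 0.551). Without scaling all 3 were called lower, at -1.001, -0.93 and -0.74. Adenylate cyclase (AOL_s00080g284), which makes cAMP, fell from 17.9, 17.2 and 16.6 to 11.1, 12.7 and 11.2. The phosphodiesterase regA homologue (AOL_s00083g160), of the enzymes that break cAMP down, rose from 27.7, 28.6 and 34.5 to 58.5, 57.3 and 72.7, with a log2 fold change of 1.03 ± 0.13 that was 0.12 and not called without scaling. A second phosphodiesterase (AOL_s00097g378) was 17.3, 16.9 and 15.4 untreated and 14.7, 17.1 and 17.6 induced, and the cyclase-associated protein (AOL_s00109g42) had a log2 fold change of 0.18 ± 0.07. Neither gene passed the test with scaling, and both were called lower without it, at -0.88 and -0.74 (with scaling adjusted p = 0.97 and 0.0522).

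Of 11 MAP kinase cascade genes 3 were called higher and 5 lower, and 1 higher and 8 lower without scaling. The kinase spm1 (AOL_s00173g235) of the cell wall integrity cascade fell from 203, 167 and 161 to 69.8, 61.8 and 59.3. The kinase mkh1 (AOL_s00054g475), upstream in that cascade in fission yeast, fell from 41.9, 38.4 and 37.7 to 17.1, 16.7 and 18.2. The osmotic stress kinase HOG1 (AOL_s00109g23) was 51.4, 58.3 and 57.6 untreated and 108, 96.6 and 97.2 induced, called higher at a log2 fold change of 0.84 ± 0.08 with scaling and -0.08 without it. Of 44 tested small GTPases, G proteins and their regulators 9 were called higher and 22 lower. A G protein beta-like subunit (AOL_s00173g232) rose from 142, 121 and 106 to 413, 409.5 and 382. Of 107 tested Zn2Cys6 transcription factors 48 were called higher and 34 lower, with a median of 0.22 that was -0.64 without scaling. Among them pro1 (AOL_s00076g45), a regulator of sexual development in Sordaria, fell from 397, 306 and 334 to 24.9, 21.7 and 29.5, a log2 fold change of -3.72 ± 0.14 (adjusted p = 6.27e-06).

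Of 16 tested sterol synthesis genes, 6 were called higher and 5 lower, shares near those of all genes. Without scaling the counts were 4 higher and 10 lower, with a median of -0.91. The sterol isomerase erg2 (AOL_s00097g539) rose from 112, 129 and 119 to 518, 571 and 474, and the sterol desaturase AOL_s00076g338 from 561, 835 and 996 to 2961, 3112 and 2786. Squalene synthase (AOL_s00004g98), the entry enzyme, fell from 92.6, 83.7 and 74.7 to 55.1, 55.3 and 46.2, and the sterol reductase AOL_s00169g16 from 47.6, 46.2 and 46.1 to 26.8, 26.1 and 29.3. Cytochrome P450 genes, of oxidizing enzymes in secondary metabolism and detoxification, had 14 of 31 called higher and 7 lower, with a median of 0.52 that was -0.31 without scaling. The P450 gene AOL_s00215g278 rose from 1078, 1821 and 2055 to 8505, 8134 and 9693. Another, annotated as tryprostatin B 6-hydroxylase (AOL_s00097g233), fell from 135, 104 and 109 to 1.88, 2.01 and 2.96. Of 7 polyketide synthesis genes 5 were tested, with 3 called higher and none lower and a median of 0.49 that was -0.23 without scaling.

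The largest named decreases held a repeated family. Phosphorylase superfamily protein AOL_s00215g318, of a domain found in nucleoside phosphorylases, fell from 388, 319.8 and 343 to 2.11, 2.08 and 2.10. A further member, AOL_s00210g266, fell from 87.3, 84.5 and 93.4 to 1.15, 1.31 and 1.42. Another member, AOL_s00080g76, was 64.0, 43.5 and 42.1 untreated and listed at 0 in all induced libraries. Of 23 tested genes with that domain as their name 17 were called lower and 1 higher, with a median log2 fold change of -0.75, a grouping chosen after the values were seen. A pair of proteins with a membrane-associating domain also fell, AOL_s00173g118 from 190.2, 145 and 151 to 0.797, 2.08 and 2.10 and AOL_s00188g153 from 400.4, 354 and 307 to 10.2, 5.44 and 2.59. The short-chain dehydrogenase AOL_s00083g273 was 318, 199 and 228 untreated in the deletion, and listed at 0 in its induced libraries and in all 6 wild type libraries.

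The most abundant genes of the untreated deletion moved in both directions. The calcium-binding mitochondrial carrier AOL_s00097g48 stood at 8381, 12923 and 17751 untreated and 19925, 17690.5 and 22344 induced, a log2 fold change of 0.68 ± 0.34 that did not pass the test (adjusted p = 0.124). The Allergen Asp f 15 homologue (AOL_s00083g444), of the cerato-platanin family of small secreted proteins, rose from 6884, 11979.8 and 12825 to 27056, 23857 and 29086, a change not called without scaling. The gene annotated as anucleate primary sterigmata protein B (AOL_s00083g434), a spindle pole protein in Aspergillus, rose from 5045, 8952 and 10371 to 28129.7, 21856 and 27657. In all 3 genes untreated replicate 1 was the lowest. A protein with the DUF3455 domain (AOL_s00188g304) fell from 8332, 8411 and 8091 to 774, 774 and 728, or 10.9-fold (adjusted p = 3.51e-06). Of 2241 tested genes with no Swiss-Prot or Pfam name, 626 were called higher and 783 lower.

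The response of the deletion was set against that of the wild type in the same experiment. Across the 8977 genes the log2 fold changes of both strains had a Pearson correlation of 0.52 and a Spearman correlation of 0.53, a description over genes that are not independent. Of the 2018 genes called 2-fold higher in the deletion 853 were also 2-fold or more higher in the wild type, 983 were within 2-fold and 182 were 2-fold or more lower. Of the 1335 called 2-fold lower 666 were also lower by that much in the wild type, 644 were within 2-fold and 25 were higher. The difference between both responses, fitted over 12 libraries, was called for 5751 genes (64.1%), more positive in the deletion for 2969 (33.1%) and more negative for 2782 (31.0%). Because the wild type replicates lie so close, the fit was repeated after averaging each wild type group to 1 library, that lone value being assumed to vary like the deletion libraries, and then called 2772 genes, 1672 more positive and 1100 more negative. Without scaling 6458 were called, 1618 more positive and 4840 more negative.

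Genes of the glyoxylate and tricarboxylic acid cycles and of storage carbohydrates responded more positively in the deletion. The difference was called more positive for all 4 glyoxylate and gluconeogenesis genes, 12 of 14 tricarboxylic acid cycle genes and 8 of 10 trehalose and glycogen genes, and these counts were the same with each wild type group as 1 library. Their median differences stayed above 0 without scaling, at 1.97, 0.47 and 1.35. Glycolysis was less stable: 10 of 13 differences were called more positive and 2 more negative, 7 and 0 with the wild type groups averaged, and its median difference of 0.62 was -0.07 without scaling. Isocitrate lyase went from 209, 207 and 211 to 118, 126 and 116 in the wild type, against its 7.69-fold rise in the deletion, and the difference was 3.74 on the log2 scale (adjusted p = 4.45e-09). Malate synthase differed by 3.26 (adjusted p = 6.25e-08). Glycogen synthase went from 247, 247 and 243 to 45.0, 49.7 and 47.1 in the wild type and so differed by 3.58 (adjusted p = 3.01e-09). The storage list as a whole had a median of -1.48 in the wild type. Its share of TPM untreated was 0.0498%, 0.0470% and 0.0444% in the deletion and 0.146% in each wild type library. After induction both strains were level, at 0.0493%, 0.0463% and 0.0447% in the deletion and 0.0475%, 0.0478% and 0.0473% in the wild type.

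The electron carriers differed too. Cytochrome c was already at 2445, 2510.1 and 2593 in the untreated wild type and at 2860.1, 2853 and 2728 after induction, near the induced deletion and far above the untreated deletion. The difference in response was 2.45 (adjusted p = 2.27e-08). Alternative oxidase stood at 243, 243 and 243 and 232, 243 and 254 in the wild type, and its response differed by 2.01 (adjusted p = 4.19e-05). In the respiratory list 41 of 48 responses were called more positive and 1 more negative, but only 23 with each wild type group as 1 library, and the median difference of 0.63 was -0.06 without scaling.

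Sterol and ribosomal protein genes had lower median responses in the deletion, with firmer calls for the sterol list. The sterol list had a median of 1.84 in the wild type against -0.10 in the deletion, and 12 of 16 differences were called more negative, 11 with the wild type groups averaged. The median difference was -1.77, and -2.42 without scaling. Squalene synthase went from 90.1, 85.4 and 82.1 to 298, 293 and 301 in the wild type, and the difference was -2.45 (adjusted p = 4.37e-08). The isomerase erg2 went from 95.9, 101 and 104 to 2044, 2129 and 1926, a difference of -2.22 (adjusted p = 4.34e-08). Cytosolic ribosomal proteins had a median of 2.14 in the wild type against 1.53, with 58 of 71 differences called more negative (31.0% over all genes). Most of these calls were lost with each wild type group as 1 library, and the share left was near that of all genes.

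Heat shock genes were called different from wild type in either direction. The difference was called more positive for 20 and more negative for 24 of 57 (33.1% and 31.0% over all genes), or 9 and 7 with the wild type groups averaged (18.6% and 12.3% over all genes). The list median was 0.60 in the wild type and 0.51 in the deletion. Heat shock 70 kDa protein 2 went from 6557, 6509 and 6622 to 8311, 8466 and 8396 in the wild type, and its response differed by 2.26 (adjusted p = 0.000109, or 0.0425 with averaged wild type groups). The response of hsp88 differed by 2.48 (adjusted p = 8.82e-06) and that of polyubiquitin by 2.09 (adjusted p = 4.70e-06). The small heat shock protein AOL_s00112g95 differed by 0.92, a call lost with each wild type group as 1 library (adjusted p = 0.0162 and 0.291).

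Some genes went opposite ways in the deletion and the wild type. The glucose-repressible gene protein AOL_s00004g152 was 41.0, 95.9 and 103 untreated and 951, 855 and 1251 induced in the deletion. In the wild type it was 1448, 1577 and 1509 and then 63.0, 40.9 and 49.8. Its response rose in one strain and fell in the other, a difference of 8.62 (adjusted p = 3.70e-08). The NmrA-like protein AOL_s00215g876, of a family of nitrogen regulators, did the reverse: it was 105, 75.5 and 80.3 and then 13.9, 16.9 and 16.1 in the deletion. In the wild type it was 4.02, 5.56 and 4.65 and then 203, 194 and 199, a difference of -7.52 (adjusted p = 5.79e-10). The gene AOL_s00004g481 (6.29, 13.2 and 11.3 to 139.5, 130.1 and 187 in the deletion) differed by 7.36, and the starvation protein 167 homologue AOL_s00075g199 (0, 8.53 and 0 to 54.8, 13.7 and 20.2) by 7.50, although the rise of the latter in the deletion alone lost its call when untreated replicate 1 or 3 or induced replicate 1 was left out (adjusted p = 0.0560 to 0.0583).

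Further genes with opposite or unlike responses were listed at 0 in a whole group, and only their values are given. The lipid phosphate phosphatase AOL_s00097g367 was listed at 0 untreated and at 17.5, 14.8 and 23.6 induced in the deletion, and at 140.2, 147 and 139 and then 0 in the wild type. The acetate/butyrate--CoA ligase AOL_s00081g341, which activates short acids, went from 31.1, 20.1 and 25.1 to 188, 197 and 244 in the deletion and from 279, 273 and 279 to 0 in the wild type. The membrane-associating protein AOL_s00004g43 was 2.77, 22.1 and 25.6 and 19.8, 21.8 and 45.2 in the deletion, with overlapping groups, and went from 326, 340.4 and 329 to 0 in the wild type. In the other direction stood the mitochondrial genes AOL_s00004g482 (caf17 homologue) and AOL_s00054g688 (NADH-ubiquinone oxidoreductase 51 kDa subunit). They were at 21.5, 23.7 and 28.3 and 30.7, 27.6 and 31.7 in the induced wild type and at no more than 1.18 and 0 in the induced deletion. The hydrolase AOL_s00193g117 and the DUF1917 protein AOL_s00054g749 stood at 33.1, 32.2 and 31.9 and 21.8, 20.9 and 28.2 in the induced wild type and at 0 to 0.991 in the induced deletion.

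Other named genes with unlike responses belong to the groups above. The response of the deletion was more positive than that of the wild type for the conidiation-specific protein AOL_s00081g178 (difference 5.51), the GABA permease (4.08), the chitin synthesis regulator AOL_s00083g5 (3.22), the polymerase subunit rpa1 (3.20) and uricase (3.18). It was more positive for HOG1 (2.64) and both phosphodiesterases, by 2.54 for AOL_s00097g378 and 1.14 for AOL_s00083g160. For AOL_s00097g378 the difference lay in the wild type, which fell from 144, 143 and 143 to 23.0, 25.0 and 23.1. The deletion had no called change in that gene and was low at both times. The response of the deletion was more negative for septin spn1 (-4.19) and the lectin AOL_s00080g288 (-1.28). All of these passed the test with 3 and with 1 library per wild type group (largest adjusted p with 1 library 0.0231).

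**Figure D5:**
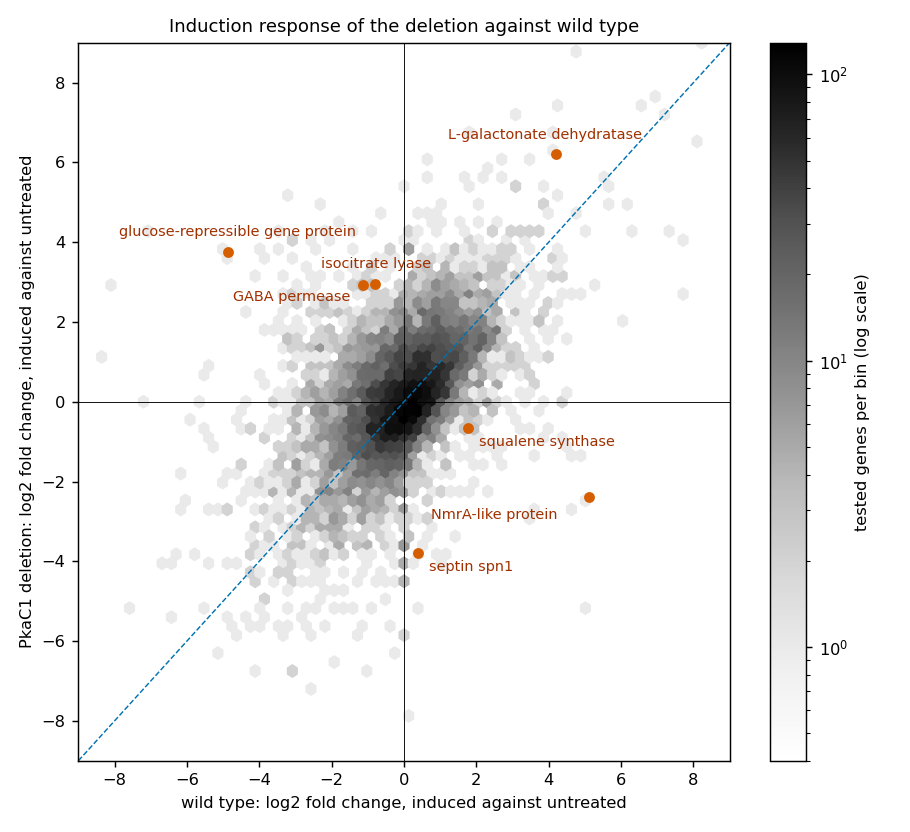
Log2 fold change on induction in the PkaC1 deletion against that in the wild type of the same experiment for 8977 tested genes, binned by number, with named genes in orange and a dashed line of equal response. Glucose-repressible gene protein, isocitrate lyase and the GABA permease rise in the deletion and fall in the wild type, NmrA-like protein and squalene synthase do the reverse, and L-galactonate dehydratase rises in both.

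The second experiment gives a further measure. Its table was deposited separately, so each response was taken within its own experiment, after the 24 libraries had been scaled together. The response of the PkaC1 deletion was called different from that of the Acy deletion in 5926 of 9877 genes (60.0%), without a control for other differences between the experiments. In the Acy deletion the median log2 fold change was -0.25 for cytosolic ribosomal proteins, -0.04 for the tricarboxylic acid cycle and -0.23 for the glyoxylate list. The wild type of that experiment had medians of -0.44, -0.03 and 0.08 for the same lists. The difference between the responses of both wild types was not tested. The glucose-repressible gene protein went from 1446, 1505 and 1625 to 8599, 8888 and 10885 in that wild type, upward as in the PkaC1 deletion and opposite to the wild type of the PkaC1 experiment. Untreated heat shock levels differed between both wild types. AOL_s00112g95 stood at 36.9, 34.9 and 51.9 there, against 9608, 9844 and 10095 in the PkaC1 experiment (scaled over its 12 libraries). For hsp98 the values were 86.6, 51.9 and 84.2 against 2710, 2747 and 2729. Heat shock 70 kDa protein 2 lay closer, at 1859, 1253 and 1777 against 6557, 6509 and 6622. The cause was not tested.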

How the data were processed

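Reads had been processed with HISAT2 and StringTie, per the submitters' processing notes; their versions, the genome build and the annotation are not given in the sources used here. Deposited values are TPM per gene and library, summing to 1000000 per library, as made by the authors. No read counts were used, so depth is unknown and no counting error can be given. The authors' deposited table of comparisons gives a log2 fold change and an adjusted p-value for each gene, by a method that no source used here states. The 8 columns of the authors' group means were not used.

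A gene was kept where at least 3 of 12 libraries listed it at 1 TPM or above. Libraries were scaled to one median over these genes. From the deposited TPM, log2(scaled TPM + 1) was computed and fitted with limma 3.58.1 (trend, empirical Bayes) in R 4.3.3, with Python 3.11.15 and pandas 2.3.3. P-values were adjusted by Benjamini-Hochberg over all tested genes, and a gene was called at an adjusted p under 0.05. The main comparison used 6 libraries without a block, and differences between responses used 12 or 24. The procedure was tested on simulated data. Genes at 0 keep their place through the pseudocount, and fold changes of (scaled TPM + 1) understate the change of low genes.

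Genes were named by rule: PKA and adenylate cyclase candidates, the 10 largest changes in each direction, up to 2 per list and direction, the largest differences from wild type and the most abundant genes, at a mean of 20 scaled TPM or more (candidates excepted). The text gives a part of them, 1 further gene is not reported here, and the text says where a gene was named after its values were seen. Gene lists were made from words in the annotation. The members and lists were chosen with earlier results of these data known. Alternatives were the scaling, pseudocount, filter, robust variances, a replicate block, all groups in the fit, each wild type group as 1 library, leaving out each library and, added after seeing the data, leaving out genes listed at 0. Names came from the deposited annotation, and all 11479 locus tags matched RefSeq.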

Additional observations from a re-analysis of the deposited data

Results flagged for a closer look

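The responses of the deletion and the wild type to induction differed, by a test of the difference itself, in 5751 genes, and those of the PkaC1 and Acy deletions in 5926. Among the named genes the following differences (deletion minus wild type, log2 scale) were called with 3 and with 1 library per wild type group. In carbon metabolism and respiration they were 3.74 for isocitrate lyase (AOL_s00075g130), 3.26 for malate synthase (AOL_s00112g112), 3.58 for glycogen synthase (AOL_s00007g435), 2.45 for cytochrome c (AOL_s00081g186) and 2.01 for alternative oxidase (AOL_s00080g303). Among stress genes they were 2.26 for heat shock 70 kDa protein 2 (AOL_s00215g255), 2.48 for hsp88 (AOL_s00210g139), 2.09 for polyubiquitin (AOL_s00078g37) and 2.64 for HOG1 (AOL_s00109g23). The phosphodiesterases differed by 1.14 (AOL_s00083g160) and 2.54 (AOL_s00097g378), and AOL_s00097g378 fell in the wild type without a called change in the deletion.

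Sterol genes differed in the other direction, by -2.22 for erg2 (AOL_s00097g539) and -2.45 for squalene synthase (AOL_s00004g98), as did septin spn1 (AOL_s00215g893) by -4.19 and the lectin AOL_s00080g288 by -1.28. More positive responses were seen for the polymerase subunit rpa1 (AOL_s00117g6) at 3.20, the chitin synthesis regulator AOL_s00083g5 at 3.22, conidiation-specific protein 13 (AOL_s00081g178) at 5.51, the GABA permease (AOL_s00173g75) at 4.08 and uricase (AOL_s00097g623) at 3.18. The widest gaps, in genes that rose in one strain and fell in the other, were 8.62 for the glucose-repressible gene protein (AOL_s00004g152), 7.50 for AOL_s00075g199, 7.36 for AOL_s00004g481 and -7.52 for the NmrA-like protein AOL_s00215g876. The rise of AOL_s00075g199 in the deletion lost its call when untreated replicate 1 or 3 or induced replicate 1 was left out.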

How the results depend on the processing

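Without scaling, 1522 genes were called higher and 5265 lower in the deletion, 1618 and 4840 in the difference from wild type (more positive and more negative), and 1429 and 5384 in that from the Acy deletion. After averaging each wild type group to 1 library, the difference from wild type was called for 2772 genes, 1672 more positive and 1100 more negative. Leaving out 1 library gave 5561 to 5905 calls in the deletion (3121 to 3274 higher, 2440 to 2631 lower) and 5363 to 5772 in the difference from wild type (2805 to 3019 more positive, 2554 to 2753 more negative). Other settings kept every count within 1.5 times. Replicate numbers paired nothing: deviations of same-numbered libraries correlated at 0.0958, -0.134 and 0.150, and with the number as a replicate block 5907, 5673 and 5906 genes were called in the 3 comparisons. Of 117 named genes with a fold, 108 were called. Without scaling the sign turned for AOL_s00075g84 (-0.74), HOG1, AOL_s00109g23 (-0.0784) and AOL_s00109g42 (-0.74), the call was lost for AOL_s00083g160 and AOL_s00083g444, and 3 other genes, including both catalytic subunits, gained one with their sign kept. Of 38 list medians, 14 fell below 0 without scaling: ribosome biogenesis (-0.74), translation factors (-0.42), tRNA synthetases (-0.50), heat shock (-0.41), trehalose and glycogen (-0.0724), peroxisome (-0.12), NADPH oxidase and tyrosinase (-0.79), plant polysaccharide (-0.31), surface (-0.50), nitrogen (-0.40), Zn2Cys6 (-0.64), P450 (-0.31), polyketide (-0.23) and peptidases (-0.71). The NADPH oxidase and tyrosinase median was also -0.0177 with median-of-ratios scaling and -0.20 with a filter at 5 TPM, where surface was -0.0416 and peptidases -0.16; peptidases were 0.00 with no filter. The cause of these moves was not tested. Depth is unknown, so the precision of low values cannot be given.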
